A study of Schizosaccharomyces pombe with 9 samples.

Results

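The genes described here, of the fission yeast Schizosaccharomyces pombe, encode Hsp90, some of its cochaperones, and chaperone factors for PIKK proteins and large complexes. They were selected by gene ID and number 10 of the 5129 genes in the count table: tel2 (SPAC458.03), tti1 (SPCC622.13c), tti2 (SPBC1604.17c), asa1 (SPAC1006.02), rvb1 (SPAPB8E5.09), rvb2 (SPBC83.08), hsp90 (SPAC926.04c), sti1 (SPCC645.14c), cdc37 (SPBC9B6.10) and wos2 (SPAC9E9.13). The IDs were matched to a RefSeq annotation for all 10, with the same symbols. RNA came from 3 genotypes with 3 libraries each, all grown in YES, a rich medium, to mid-logarithmic phase: wild type (WT), tra1D and tra1-AA. tra1D lacks tra1, the gene of a PIKK-family pseudokinase that is a subunit of the co-activator complex SAGA, and tra1-AA carries a tra1 allele whose sequence change is not described in the labels. Each genotype is a single strain (strain numbers DHP43, DHP609 and DHP1509), so strain background and genotype cannot be told apart, and the labels name no further allele.

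Hsp90 is an abundant ATP-dependent chaperone that folds kinases and other signalling proteins with the help of cochaperones. Sti1 links Hsp70 to Hsp90, Cdc37 brings protein kinases to Hsp90, and Wos2 is the fission yeast p23, which binds Hsp90 in its ATP-bound state. The TTT complex, made of Tel2, Tti1 and Tti2, works with Hsp90 on the PIKK proteins, a family of very large kinases and pseudokinases that includes Tor1, Tor2, Rad3, Tel1, Tra1 and Tra2. Asa1 is a further partner of TTT, first known in yeast as a subunit of the ASTRA complex. Rvb1 and Rvb2 are related AAA+ ATPases that form a ring. They serve R2TP, which acts with Hsp90 in the assembly of large complexes, and are also subunits of the chromatin remodellers INO80 and SWR1.

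Library totals lay between 5738138 and 8101004 counts. The tra1 transcript had 561 to 771 counts in the WT libraries, 2 to 5 in tra1D and 470 to 608 in tra1-AA, where scaled levels were 70.7 to 87.1 CPM against 88.9 to 97.3 in WT. In the labels, WT and tra1D are marked as re-analysed and tra1-AA is not. For tra1-AA against WT or against tra1D the mark and the genotype therefore cannot be told apart. The labels do not say whether the libraries of a genotype came from separate cultures, and p-values therefore measure only the spread between these libraries. In RNA from whole cultures, fewer cells that express a gene and less RNA per cell cannot be told apart.

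Heat shock element units, the short inverted repeats bound by the heat shock factor Hsf1, were looked for in the 250 bases before the annotated transcript start, because genes of Hsp90 and its cochaperones are classical heat shock genes. Such a window was available for 9 of the 10 genes (not for tti2) and for 4330 protein-coding genes in all. The units searched were GAANNTTC and TTCNNGAA, each of which reads the same on both strands, and 3 of the 9 windows held at least 1 of them, against 16.5% of all windows. The 3 were those of hsp90, sti1 and wos2. The windows of these genes and of cdc37, which rose like sti1 in both mutants but held neither unit, are shown 5′ to 3′ on the strand of the gene, with the units in capitals. They come from the RefSeq assembly ASM294v3 and its own annotation. The build used for the counts is not given in the sources used here, and counts and sequences were joined by gene ID only. The windows lie at chrI:3891140-3891389 (minus strand) for hsp90, chrIII:1263576-1263825 (minus strand) for sti1, chrI:4469090-4469339 (minus strand) for wos2 and chrII:1830837-1831086 (plus strand) for cdc37.
hsp90: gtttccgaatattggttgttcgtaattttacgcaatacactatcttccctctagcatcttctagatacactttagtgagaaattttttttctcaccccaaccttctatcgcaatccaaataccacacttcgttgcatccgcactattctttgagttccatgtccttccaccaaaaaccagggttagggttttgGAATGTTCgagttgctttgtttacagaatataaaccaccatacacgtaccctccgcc
sti1: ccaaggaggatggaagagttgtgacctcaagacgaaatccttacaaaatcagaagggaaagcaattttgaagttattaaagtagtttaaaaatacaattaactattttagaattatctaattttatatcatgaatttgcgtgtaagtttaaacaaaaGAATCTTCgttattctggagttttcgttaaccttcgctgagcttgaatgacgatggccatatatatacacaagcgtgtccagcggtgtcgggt
wos2: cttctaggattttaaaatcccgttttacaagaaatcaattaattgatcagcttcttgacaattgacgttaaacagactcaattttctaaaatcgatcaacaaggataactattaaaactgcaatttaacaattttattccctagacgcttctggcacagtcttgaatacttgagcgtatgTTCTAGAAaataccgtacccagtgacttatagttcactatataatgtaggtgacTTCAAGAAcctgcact
cdc37: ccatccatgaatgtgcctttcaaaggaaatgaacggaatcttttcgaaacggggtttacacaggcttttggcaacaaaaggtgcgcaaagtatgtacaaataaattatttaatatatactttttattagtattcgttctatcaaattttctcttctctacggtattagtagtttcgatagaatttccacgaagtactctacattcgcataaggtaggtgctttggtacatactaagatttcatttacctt
The unit of hsp90, GAATGTTC, begins 57 bases before the transcript start and that of sti1, GAATCTTC, 93 bases before it. wos2 has a pair of units, TTCTAGAA at 70 and TTCAAGAA at 16 bases. TGACGT, the core of the element bound by the stress factor Atf1, was searched on both strands and overlaps neither unit. It occurred in the window of wos2, beginning 188 bases before the start, and in 5.31% of all windows. A match of letters is a description of the sequence, and no binding was measured.

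The 10 transcripts differed widely in level. Levels are CPM, counts scaled to library size with TMM factors, and between genes they are compared per kilobase of annotated exon. In WT the order ran from hsp90 at 449 ± 34.7 CPM per kb (mean ± SD, n = 3 libraries here and below), above 93.8% of the tested genes, down to tti1 at 2.88 ± 0.502, above only 2.4%. wos2 followed hsp90 with 296 ± 19.5 CPM per kb, and the ATPase genes rvb2 and rvb1 stood next, with 174 ± 5.72 and 168 ± 1.19. sti1 had 81.2 ± 7.69, cdc37 58.4 ± 4.01 and asa1 42.7 ± 1.28 CPM per kb, the last close to the middle of the tested genes (50.9% lay below it). The TTT genes were the lowest of the set, with tel2 at 14.5 ± 1.3 and tti2 at 10.8 ± 1.35 CPM per kb.

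**Figure D1:**
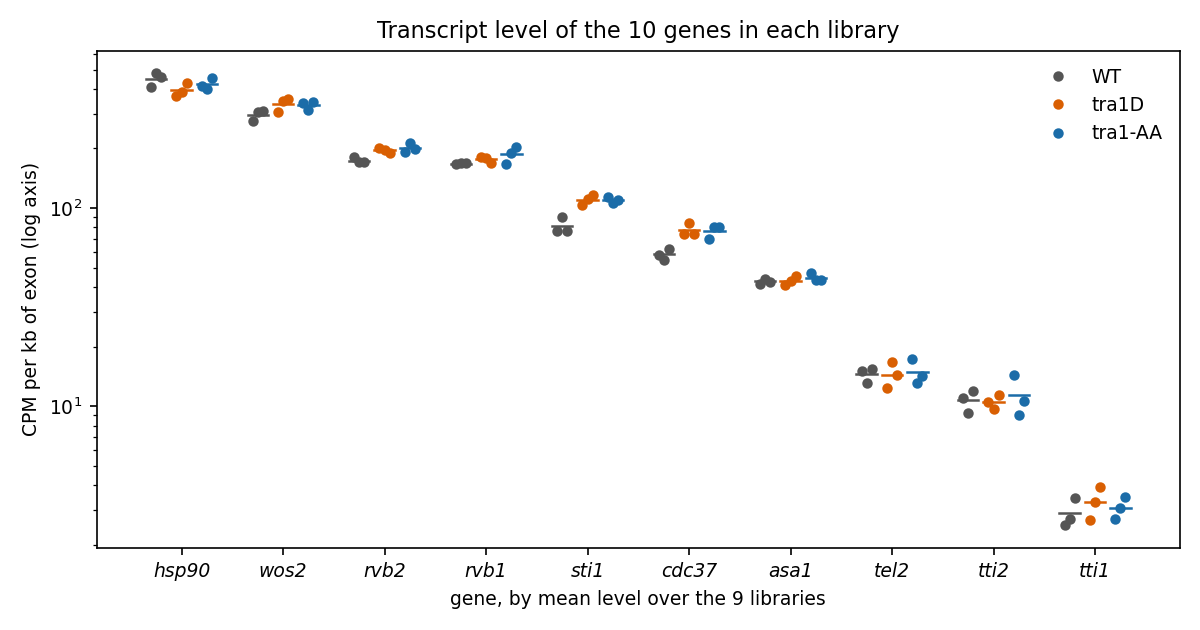
Transcript level of the 10 genes in each of the 9 libraries, in CPM per kb of exon on a log axis, with genes ordered by their mean level. Points are libraries, short lines are group means, and colours are the genotypes. hsp90 and wos2 are at the top and tti1 is at the bottom in every genotype; the WT points of sti1 and cdc37 lie below all points of both mutants.

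By the ranges of their libraries, neighbours in this order were not always apart. rvb1 and rvb2 lay within 166.5 to 168.7 and 170.1 to 180.2 CPM per kb in the WT libraries, but their ranges overlapped in tra1-AA, at 168 to 204 and 192 to 213. tel2 and tti2 were apart in WT, with 13.1 to 15.5 against 9.28 to 11.9 CPM per kb, and overlapped in tra1-AA, with 13.1 to 17.3 against 9.04 to 14.5. Within each library, however, tel2 lay above tti2, at ratios from 1.17 (tra1D replicate 1) to 1.71 (tra1D replicate 2). Per kilobase of coding sequence, wos2 came before hsp90 (576 against 515 as means over the 9 libraries) and rvb1 before rvb2 (228 against 223), so these orders depend on the length used. tti1 was last by either measure, with 4722 bases of annotated exon but 3297 of coding sequence.

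The comparison with WT asks whether transcripts of these chaperone genes differ in cells that lack Tra1 or carry its tra1-AA allele. sti1 and cdc37 rose by 31.5% to 35.8% in both mutants, while hsp90, the TTT genes and asa1 did not pass the test. In tra1D, 2 of the 10 genes rose and none fell, where 11.5% of all 4913 tested genes changed, 5.17% rose and 6.35% fell (called at a Benjamini-Hochberg adjusted p below 0.05 over the tested genes, by the quasi-likelihood test of edgeR). In tra1-AA, 3 of the 10 rose and none fell, where 15.9% of the tested genes changed, 7.94% rising and 7.96% falling. Scaled by library totals alone, rises made up 64.9% of the calls over all genes in tra1D, against 44.9% with TMM. All 10 genes passed the filter on low counts. The median log2 fold change of the 10 was 0.124 in tra1D and 0.129 in tra1-AA, beside 0.004 and 0.006 over all tested genes. The CPM ranges of mutant and WT did not overlap for 4 of the 10 genes in each comparison, a share near that of all tested genes (32.7% in tra1D and 34.7% in tra1-AA). Both comparisons share the WT libraries, so their values for a gene are not independent.

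**Figure D2:**
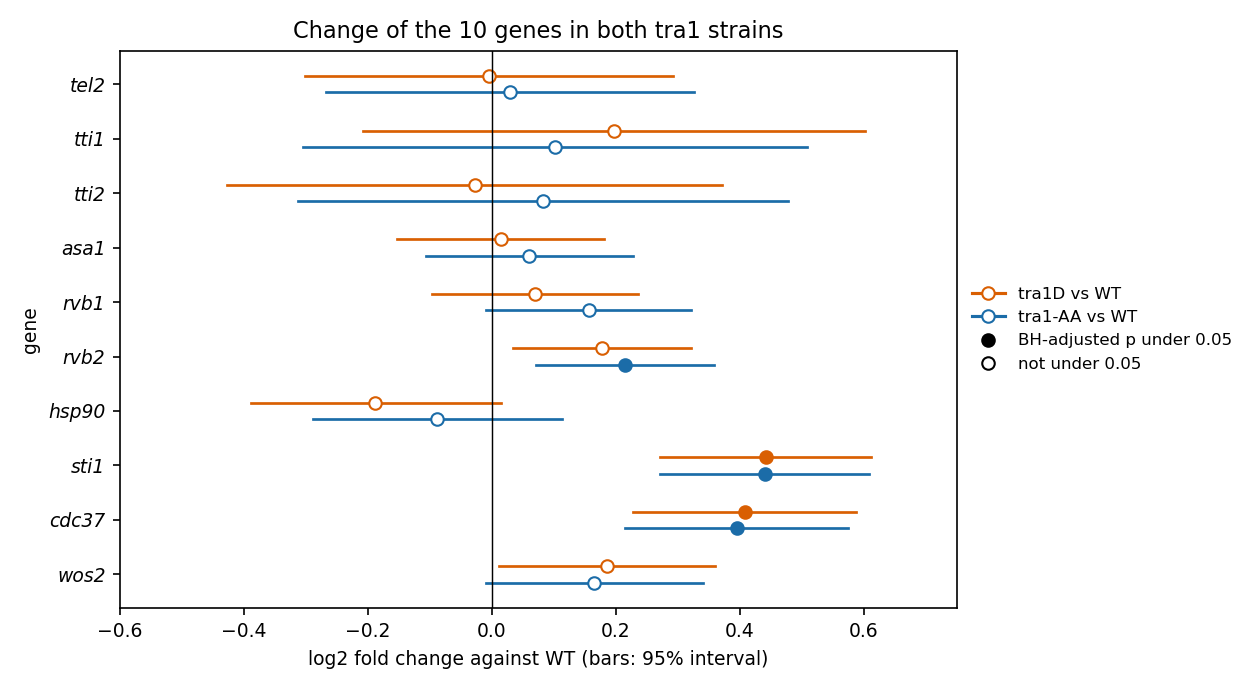
log2 fold change against WT of the 10 genes in tra1D (orange) and tra1-AA (blue), with 95% intervals from the edgeR fit as bars; filled points have a BH-adjusted p under 0.05. sti1 and cdc37 are filled in both strains at 0.40 to 0.44, rvb2 is filled in tra1-AA alone, and the intervals of tel2, tti1, tti2, asa1 and hsp90 include 0.

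sti1, the link to Hsp70, had 172, 201 and 172 CPM in WT replicates 1 to 3, 231, 249 and 261 CPM in tra1D and 256, 238 and 246 CPM in tra1-AA. Every mutant library lay above every WT library, and the mutants overlapped each other. The log2 fold change was 0.442 in tra1D (SE 0.078, edgeR adjusted p = 0.00374) and 0.440 in tra1-AA (SE 0.078, edgeR adjusted p = 0.0032), or 1.36-fold in each. The absolute change was greater than that of 90.9% of the tested genes in tra1D and 89.8% in tra1-AA. With each of the 9 libraries left out in turn, sti1 stayed called in 9 of 9 fits of each comparison, at 0.401 to 0.524 in tra1D and 0.400 to 0.518 in tra1-AA. In the authors' deposited table the log2 fold change of sti1 was 0.408 (SE 0.094, adjusted p = 0.00039) for tra1D and 0.40 (SE 0.094, adjusted p = 0.00051) for tra1-AA.

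cdc37 rose by a similar amount. Its levels were 93.8, 88.0 and 101 CPM in WT, 119, 136 and 119 CPM in tra1D and 113, 129 and 129 CPM in tra1-AA. Mutant and WT libraries did not overlap. The log2 fold change was 0.408 in tra1D (SE 0.083, edgeR adjusted p = 0.00847) and 0.395 in tra1-AA (SE 0.083, edgeR adjusted p = 0.00849), or 1.33-fold and 1.31-fold. cdc37 was called in 9 of 9 fits with a library left out, though narrowly in some, with BH-adjusted p up to 0.0469 in tra1D and 0.0496 in tra1-AA (edgeR). The authors' deposited table gives 0.375 (adjusted p = 0.00232) and 0.355 (adjusted p = 0.00616).

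An annotated gene on the opposite strand, SPBC9B6.11c, overlaps 90.6% of the exons of cdc37. The library kit keeps strand, but the strand setting of the counting is not given in the sources used here. Reads in the overlap could thus have been counted for cdc37, for SPBC9B6.11c or for neither. Both the level and the change of cdc37 carry this limit. SPBC9B6.11c had 227 ± 2.09 CPM in WT, 250 ± 11.1 in tra1D and 246 ± 10.1 in tra1-AA. Its log2 fold changes of 0.136 and 0.112 did not pass (edgeR adjusted p = 0.181 and 0.238) and were smaller than those of cdc37. Its part in the rise of cdc37 was not tested. sti1 and hsp90 have no such overlap with another gene of the count table. Annotated non-coding RNAs that are not in the count table overlap further members on the opposite strand. Among these overlaps are 15.7% of the exons of sti1, 26.8% of rvb2, 38.8% of wos2 and 53.1% of tti2. Larger ones cover 71.2% of tti1, 78.9% of asa1 and 82.4% of rvb1. Whether reads from these RNAs were assigned to the members was not tested.

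wos2, the p23 gene, had 275, 308 and 309 CPM in WT, 308, 350 and 357 CPM in tra1D and 340, 315 and 346 CPM in tra1-AA. All tra1-AA libraries lay above WT, while the lowest tra1D library was within the WT range. The log2 fold changes of 0.186 in tra1D (95% interval 0.011 to 0.360) and 0.165 in tra1-AA (-0.009 to 0.340) did not pass over all genes (edgeR adjusted p = 0.161 and 0.187).

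hsp90 was the only member of the set with a negative difference in both mutants, and it passed in neither. It had 1061, 1236 and 1181 CPM in WT, 953, 996 and 1104 CPM in tra1D and 1070, 1030 and 1172 CPM in tra1-AA. WT and mutant ranges overlapped in both comparisons. The log2 fold change was -0.188 in tra1D (95% interval -0.389 to 0.014, edgeR adjusted p = 0.218) and -0.088 in tra1-AA (-0.289 to 0.113, edgeR adjusted p = 0.555). The upper ends of these intervals lie below the changes of sti1 in the same strains.

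The balance between hsp90 and its cochaperones was therefore set out as a ratio of CPM per kb within each library, a measure chosen after the values were seen. The ratios use the same CPM values as the tests above, so they add no independent evidence. The share of other gene pairs without overlap was not determined. The ratio of hsp90 to sti1 was 5.36, 5.32 and 5.96 in WT replicates 1 to 3. It was 3.58, 3.47 and 3.67 in tra1D, while the tra1-AA libraries had 3.63, 3.75 and 4.14. The mean ratio differed from WT by -35.5% in tra1D and -30.8% in tra1-AA, without overlap. The ratio of hsp90 to cdc37 went from 7.72 ± 0.925 in WT to 5.12 ± 0.622 in tra1D and 5.52 ± 0.47 in tra1-AA, also without overlap. For wos2 the ratio was 1.52 ± 0.0381 in WT, 1.17 ± 0.0556 in tra1D and 1.27 ± 0.0467 in tra1-AA, and WT again lay apart from both mutants. For each of these 6 comparisons the two-sided exact permutation test gave p = 0.1, the smallest that 3 libraries against 3 allow, and 0.171 after BH adjustment over the 12 ratio comparisons made, so none could pass.

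**Figure D3:**
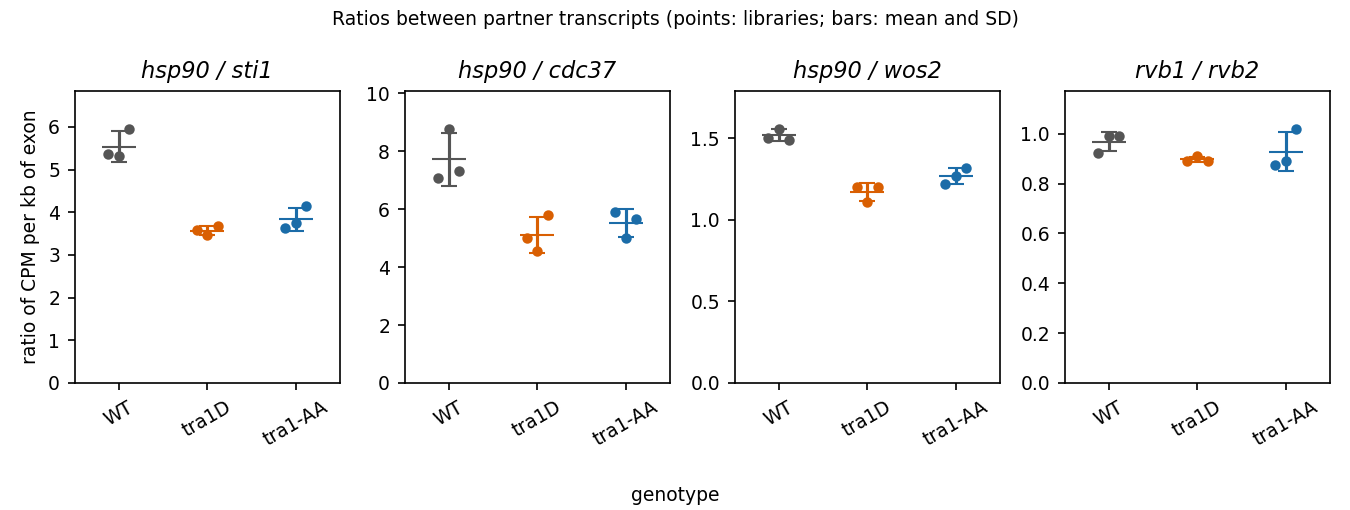
Ratios of CPM per kb of exon between partner transcripts in each library, by genotype, each panel with its own axis from 0; points are libraries, and bars are the mean and SD of 3 libraries. In the 3 panels with hsp90 every WT library lies above every mutant library; for rvb1 over rvb2 the WT points lie above those of tra1D and overlap those of tra1-AA.

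The TTT genes did not pass in either mutant, and their intervals were wide; each library held 87 to 358 counts of each of them. tel2 had 42.0, 36.3 and 42.9 CPM in WT, 34.3, 46.4 and 39.9 CPM in tra1D and 48.0, 36.4 and 39.4 CPM in tra1-AA. tti1 had 11.9, 12.7 and 16.3 CPM in WT, 12.6, 15.5 and 18.6 CPM in tra1D and 12.8, 14.5 and 16.4 CPM in tra1-AA. tti2 had 16.8, 14.1 and 18.1 CPM in WT, 15.98, 14.8 and 17.3 CPM in tra1D and 21.9, 13.7 and 16.1 CPM in tra1-AA. In all 3 genes the libraries of each mutant overlapped those of WT, and the highest tti2 value, in tra1-AA replicate 1, came from the same library as the highest tel2 value.

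The log2 fold changes of the TTT genes were -0.005 (tel2), 0.197 (tti1) and -0.028 (tti2) in tra1D and 0.030, 0.102 and 0.082 in tra1-AA, with BH-adjusted p from 0.525 to 0.987 (edgeR). Their 95% intervals were -0.302 to 0.292 for tel2, -0.208 to 0.602 for tti1 and -0.427 to 0.371 for tti2 in tra1D. In tra1-AA they were -0.267 to 0.326, -0.305 to 0.509 and -0.313 to 0.478, so a change of the size seen for sti1 lay outside the intervals of tel2, inside those of tti1, and for tti2 inside the interval of tra1-AA alone. The ratio of tti1 to tti2 per kb was 0.269 ± 0.0364 in WT, 0.312 ± 0.051 in tra1D and 0.285 ± 0.0852 in tra1-AA, with overlap. The exons of tti2 are overlapped for 34.3% of their length by gpi16 (SPBC1604.15) on the opposite strand, whose own log2 fold changes were 0.173 and 0.171 and did not pass (edgeR adjusted p = 0.337 and 0.314). On the same strand, gdh1 (SPCC622.12c) overlaps 1.23% of the exons of tti1, with 723 CPM in WT against 13.6 for tti1. gdh1 rose by 0.424 in tra1D (edgeR adjusted p = 0.00841) and 0.379 in tra1-AA (edgeR adjusted p = 0.0126). Its part in the tti1 values was not tested.

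asa1, the TTT partner, varied little between libraries (coefficient of variation 3% in WT). It had 58.6, 62.1 and 59.6 CPM in WT, 57.8, 60.3 and 63.9 CPM in tra1D and 66.3, 60.8 and 60.7 CPM in tra1-AA. The log2 fold change was 0.014 in tra1D (95% interval -0.153 to 0.181, edgeR adjusted p = 0.929) and 0.060 in tra1-AA (-0.106 to 0.227, edgeR adjusted p = 0.627). These intervals lie below the changes of sti1 and cdc37.

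Of the ATPase genes, rvb2 rose in tra1-AA alone and by little. It had 295, 279 and 278 CPM in WT, 331, 322 and 310 CPM in tra1D and 314, 348 and 326 CPM in tra1-AA, with every mutant library above every WT library. The log2 fold change was 0.215 in tra1-AA (SE 0.066, edgeR adjusted p = 0.0455) and 0.177 in tra1D (SE 0.066, edgeR adjusted p = 0.108, not called). The call in tra1-AA held in 1 of 9 fits with a library left out, the fit without tra1-AA replicate 1 (BH-adjusted p = 0.0368), and BH-adjusted p reached 0.223 without tra1-AA replicate 2 (log2 fold change 0.164, edgeR). With the replicate number as a block the call was lost, in the 9 libraries (edgeR adjusted p = 0.0672) and in WT and tra1-AA alone (0.208, edgeR adjusted p = 0.0653). In the authors' deposited table rvb2 had an adjusted p of 0.103 in tra1-AA and 0.155 in tra1D. The direct comparison of tra1-AA with tra1D gave 0.038 for rvb2 (95% interval -0.106 to 0.181, edgeR adjusted p = 0.999), so a difference between the mutants was not found.

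rvb1 had 294, 298 and 297 CPM in WT, 319, 316 and 298 CPM in tra1D and 296, 335 and 360 CPM in tra1-AA. The WT libraries were within a narrow range, the tra1D libraries lay above it by a margin of less than 1 CPM at the closest, and tra1-AA replicate 1 was inside it. The log2 fold change was 0.070 in tra1D and 0.157 in tra1-AA, and neither passed (edgeR adjusted p = 0.587 and 0.188). Without tra1-AA replicate 1 the value in tra1-AA was 0.229 and passed (edgeR adjusted p = 0.0468). The ratio of rvb1 to rvb2 per kb was 0.967 ± 0.0379 in WT, 0.897 ± 0.0106 in tra1D and 0.928 ± 0.0796 in tra1-AA. It did not overlap between tra1D and WT (difference -7.27%, exact permutation p = 0.1, BH-adjusted 0.171) and overlapped between tra1-AA and WT. The best match between their coding sequences was 72.2% identical. None of the 10 coding sequences has a copy elsewhere in the assembly of at least 50 bases at 98% identity. Untranslated exon sequence was not searched for copies. On the opposite strand SPAC1B3.01c overlaps 16.1% of the exons of rvb1. That gene rose in tra1D (log2 fold change 0.271, edgeR adjusted p = 0.0235), and its part in the rvb1 values was not tested.

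The comparison of tra1-AA with tra1D asks whether the allele differs from loss of the gene. Here too the re-analysis mark and the genotype cannot be told apart. None of the 10 genes passed by edgeR or by DESeq2, none had an unadjusted p under 0.05 in edgeR, and the groups overlapped for all 10. Of all tested genes 0.0407% were called (0.0204% rose and 0.0204% fell), and 9.06% had non-overlapping ranges. The gene that rose was tra1 itself, which is deleted in tra1D (log2 fold change 7.442, edgeR adjusted p = 7.68e-10). The log2 fold changes of the 10 genes lay between -0.095 for tti1 and 0.110 for tti2. The intervals were narrow for sti1 (-0.170 to 0.166) and cdc37 (-0.191 to 0.165) and wider for tti1 (-0.499 to 0.308).

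Further Hsp90 cochaperones were examined as a list of 8 names, of which tah1 and pih1 were not matched in the annotation. The annotated gene matched by the name ppt1 also carries the name coq2 and belongs to coenzyme Q synthesis, so 5 cochaperones remain. In tra1-AA 3 of these 5 rose and none fell, where 7.94% of all tested genes rose and 7.96% fell. In tra1D none of the 5 passed in edgeR, with 2 at an unadjusted p under 0.05, nor in DESeq2, where 11.5% of all tested genes were called in edgeR. The median log2 fold change of the 5 was 0.330 in tra1-AA and 0.120 in tra1D. With ppt1 the counts were 4 of 6 in tra1-AA and 0 of 6 in tra1D, and the medians 0.308 and 0.174. git7, the fission yeast Sgt1, rose from 40.0 to 55.3 CPM in tra1-AA (0.466 on the log2 scale, SE 0.103, edgeR adjusted p = 0.011) and had 0.344 in tra1D (edgeR adjusted p = 0.0517). aha1, which stimulates the ATPase of Hsp90, rose by 0.330 in tra1-AA (edgeR adjusted p = 0.0158), and its value was 0.119 in tra1D (0.359). wis2, a cyclophilin of the cyclophilin-40 type, rose by 0.336 in tra1-AA (edgeR adjusted p = 0.0426) and had 0.245 in tra1D (edgeR adjusted p = 0.144). The coenzyme Q gene ppt1 rose by 0.286 in tra1-AA (edgeR adjusted p = 0.0427).

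**Figure D4:**
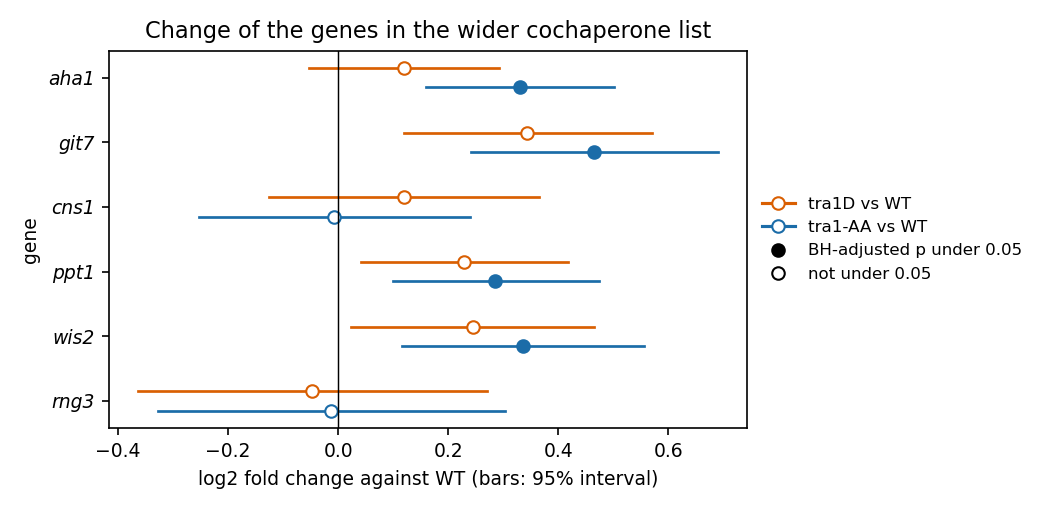
log2 fold change against WT of the 5 further cochaperone genes and the coenzyme Q gene ppt1 in tra1D (orange) and tra1-AA (blue), with 95% intervals as bars; filled points have a BH-adjusted p under 0.05. git7, aha1, wis2 and ppt1 are filled in tra1-AA at 0.29 to 0.47 and open in tra1D, and rng3 is near 0 in both.

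cns1, another TPR-domain cochaperone, had log2 fold changes of 0.120 in tra1D and -0.007 in tra1-AA, and rng3, a chaperone of myosin, had -0.047 and -0.013. With each library left out in turn, git7 stayed called in tra1-AA in 9 of 9 fits, aha1 in 7, wis2 in 3 and ppt1 in 2. In tra1D git7 passed without tra1D replicate 1 or tra1-AA replicate 1, and ppt1 without WT replicate 2. With ppt1 counted in, the calls in tra1-AA were 1 without WT replicate 1 or without tra1-AA replicate 3, and 2 without WT replicate 3, tra1D replicate 2 or tra1-AA replicate 2. Between the mutants none of the 6 differed by edgeR (1 at an unadjusted p under 0.05) or by DESeq2, so the calls in tra1-AA alone do not show a difference from tra1D.

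Genes of the PIKK proteins, on which TTT works with Hsp90, were described in the same way. Of 14 genes of PIKKs and their partners, only tra1, the deleted gene, passed in tra1D by edgeR, where 11.5% of all tested genes were called. In tra1-AA none passed by edgeR (3 at an unadjusted p under 0.05) or DESeq2, where 15.9% of all tested genes were called in edgeR. DESeq2 also called rad26 in tra1D. The median log2 fold changes were -0.002 and -0.001. rad26, the partner of Rad3, had -0.405 in tra1D and -0.301 in tra1-AA (edgeR adjusted p = 0.0521 and 0.112), and its ranges in both mutants lay apart from WT. tra1 itself had -0.250 in tra1-AA, with ranges apart from WT (edgeR adjusted p = 0.0998). With the replicate number as a block in WT and tra1-AA alone it passed, at -0.258 (edgeR adjusted p = 0.0356). mip1, the fission yeast Raptor, had 0.149 in tra1D (edgeR adjusted p = 0.149). Without tra1-AA replicate 1, rad26 passed in both mutants (-0.405 in tra1D and -0.403 in tra1-AA) and tra1 in tra1-AA (-0.324). Without tra1-AA replicate 3, rad26 passed in tra1D.

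Of 19 genes of INO80 and SWR1, which share Rvb1 and Rvb2, none passed in tra1D by edgeR (2 at an unadjusted p under 0.05) or DESeq2. In tra1-AA 1 of the 19, iec1, rose (log2 fold change 0.297, edgeR adjusted p = 0.043), where 7.94% of all tested genes rose, so the share of the list was not above the background. The iec1 value was a call kept in 2 of 9 fits with a library left out and lost without WT replicate 1 or 3, tra1D replicate 1 or 2, or any tra1-AA library. With the replicate number as a block it was also lost (edgeR adjusted p = 0.0604 in the 9 libraries and 0.0509 in WT and tra1-AA alone). Without WT replicate 3, nht1 passed in both mutants (0.451 and 0.442) and swc4 in tra1-AA (0.320). The INO80 gene nht1 had 0.313 and 0.304 in the mutants (edgeR adjusted p = 0.152 and 0.14), iec5 had 0.221 in tra1D (edgeR adjusted p = 0.103), and the SWR1 gene swc4 had 0.240 in tra1-AA (edgeR adjusted p = 0.0805). The medians of this list were 0.047 and 0.050.

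For each of the 3 genes called, the tested genes with the most similar pattern over the 9 libraries were found by the Euclidean distance between log2 CPM values centred on each gene's mean. Nearest to sti1 were pls1 at 0.187, pof11, an F-box protein gene, at 0.196 and byr1, which encodes the MAP kinase kinase of the pheromone pathway, at 0.201, with a median distance of 0.766 over all tested genes. Nearest to cdc37 were ada2, a SAGA subunit gene, at 0.197, sod2 (SPAC1486.01) at 0.216 and cwf26, a splicing factor gene, at 0.225. The median distance from cdc37 was 0.73. Nearest to rvb2 were the V-ATPase subunit gene vma4 at 0.0872, arp42, an actin-related protein gene of SWI/SNF and RSC, at 0.0885 and the nucleoporin gene nup211 at 0.102, with a median of 0.498. None of the 9 neighbours is among the 10 genes themselves.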

How the data were processed

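The authors aligned the reads with HISAT2 2.1.0 and used HTSeq 0.9.1 to assign them to genes, per the submitters' processing notes, and deposited a raw read count per gene for 9 libraries. Per the file headers, the tables of comparisons deposited by the authors give a log2 fold change with its SE, a p-value and an adjusted p-value; the notes name DESeq2 1.18.1. No source used here names the genome build, annotation or strand setting. Unused per-sample columns numbered 0.

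Low genes were removed with filterByExpr (at least 10 counts, at least 15 in total), leaving 4913 of 5129. All 3 comparisons came from 1 quasi-likelihood model in edgeR 4.0.16 (R 4.3.3), scaled by TMM and fitted to the 9 libraries together. Adjusted p-values are Benjamini-Hochberg (BH) values over all tested genes, called at 0.05, and intervals are 95% intervals of this model. The SE of a log2 fold change is its size divided by the square root of the F statistic. Distances used log2 CPM with a prior count of 2. Replicates of a group were not copies of each other (chi-square per degree of freedom 8.41 to 28.78). With totals of 5738138 to 8101004, a single count was worth 0.126 to 0.168 CPM. Gene names and sequences came from RefSeq ASM294v3 (5111 IDs matched by locus tag, 3 by an older ID, 15 unmatched), copies were sought with BLAST 2.17.0, and plots used matplotlib 3.10.9. The 10 genes, the lists and the tests were chosen with earlier results of these data known. Named list genes are those called and, in each comparison with WT, up to 2 more per list with the largest absolute log2 fold change. The labels do not say that replicate numbers pair libraries. Deviations of same-numbered libraries correlated at 0.109 to 0.357 between WT and tra1-AA (3 pairs), against -0.351 to 0.085 for different numbers (6 pairs). The deviations are from the mean of each group, so the values for same and different numbers are not independent of each other. The contrast was taken only as a possible pairing of WT and tra1-AA, used in the fits with a replicate block but not in the main fit. Between WT and tra1D the values were -0.116 to -0.01 for same numbers and -0.054 to 0.13 for different numbers. Between the mutants they were -0.203 to -0.017 and -0.174 to 0.22, so values above 0.1 also occurred without a shared number. Alternatives were DESeq2 1.42.0, RLE factors, no TMM factors (library totals), no filter on low counts, a filter at 5 CPM in 3 libraries, only the groups compared, a replicate block and each library left out.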

Additional observations from a re-analysis of the deposited data

How the results depend on the processing

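Under 7 alternatives (DESeq2, RLE factors, library totals in place of TMM, no filter, a filter at 5 CPM in 3 libraries, only the 2 groups compared, and a replicate block), sti1 and cdc37 were called in tra1D and in tra1-AA. The rvb2 call in tra1-AA was lost with RLE factors (BH-adjusted p = 0.061), the stricter filter (0.059) and only the groups compared (0.0915), and with library totals rvb2 passed in tra1D (log2 fold change 0.249, BH-adjusted p = 0.0362). Library totals also turned the sign of tel2 (0.069) and tti2 (0.042) in tra1D, both uncalled. With the replicate block the calls over all genes were 514 in tra1D, 718 in tra1-AA and 3 between the mutants, rvb2 in tra1-AA had 0.215 (BH-adjusted p = 0.0672), and the count of INO80 and SWR1 in tra1-AA was 0. With the block in WT and tra1-AA alone, an alternative chosen after seeing the data, all genes had 903 calls in tra1-AA, rvb2 had 0.208, INO80 and SWR1 had 0 and the PIKK list 1 (tra1). Neither block changed another call among the 10 genes or the list genes called in tra1-AA.

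That count was also 0 with DESeq2, RLE factors and only the groups compared. The wider cochaperone count was 2 in tra1-AA with only the groups compared, and 1 in tra1D with library totals (ppt1) or the stricter filter (git7); these counts include ppt1. The PIKK count in tra1D was 2 (tra1 and rad26) with DESeq2, RLE factors, the stricter filter and only the groups compared. Calls over all genes between the mutants were 4 with DESeq2.

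With a library left out, the 10 genes had 2 calls in tra1D in every fit and 2 to 4 in tra1-AA. Calls over all genes ran from 278 (without tra1D replicate 2) to 655 in tra1D, 364 (without tra1-AA replicate 2) to 845 in tra1-AA and 2 to 5 between the mutants. Wider cochaperone calls ran from 0 to 1 and 1 to 4, INO80 and SWR1 calls from 0 to 1 and 0 to 2, and PIKK calls from 1 to 2 and 0 to 2. Sign changes occurred in values without a call: in tra1D, tel2 ran from -0.125 to 0.098, tti2 from -0.122 to 0.048 and asa1 from -0.023 to 0.047; in tra1-AA, tel2 from -0.094 to 0.103 and tti2 from -0.129 to 0.214. Between the mutants tel2 ran from -0.089 to 0.155, tti1 from -0.225 to 0.043, tti2 from -0.101 to 0.245, rvb2 from -0.010 to 0.072, sti1 from -0.047 to 0.039, cdc37 from -0.049 to 0.055 and wos2 from -0.084 to 0.021. The TTT genes had 87 to 358 counts per library. The cause of these sign changes was not tested.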
